A study of Mus musculus with 15 samples.

Results

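The comparison described here set skeletal muscle with a knockout of Pdgfrb, directed to the myogenin lineage per the design text, against wild-type muscle. Its members were the genes whose normalized count reached 10 in 5 or more of the 10 samples compared, which left 15234 of 55536 genes in the deposited tables. The 10 samples were 5 controls, labelled wild type, and 5 knockouts, labelled PdgfrB Knock Out, all labelled as male and aged 2 months, although Xist in knockout 3 goes against that label. The other 5 of the 15 samples in the study carried the genotype label PdgfrB D489V, a constitutively active receptor in the same cells per the design text, and were used only for reference values. Expression was measured by sequencing directional libraries made from poly(A) RNA. The labels name no muscle, strain, litter, batch, Cre line or deleted exon, and do not say whether the wild-type mice carried a Cre transgene or a floxed allele. They do not state that the samples of a group came from separate mice, so p-values measure only the spread between these samples.

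Pdgfrb encodes the beta receptor for platelet-derived growth factor, a receptor tyrosine kinase of the cell surface. In most tissues it is best known from pericytes and vascular smooth muscle cells, the mural cells that wrap small vessels, where it is activated by PDGF-B released from the endothelium. Myogenin is a transcription factor that muscle precursors switch on as they differentiate into fibres. A deletion directed to the myogenin lineage is thus aimed at the muscle lineage rather than at the vessel wall. Whole muscle holds both, together with nerve, connective tissue and blood cells. In such bulk samples, fewer cells of a type and less RNA per cell cannot be told apart.

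Read depth was similar in both groups, with an estimated 25700000 to 33700000 reads assigned to genes in controls and 26600000 to 37100000 in knockouts. Markers of fast muscle fibres summed to 7113831 to 8967818 normalized counts in controls and 6810417 to 9519589 in knockouts. Libraries within each group were not alike, however. Control 5 and knockouts 3, 4 and 5 held RNA of lymph node markers: Cd79a, part of the B cell receptor, stood at 1077 in control 5 and at 374, 1072 and 297 in knockouts 3, 4 and 5, against 28 or less in the other 6 libraries. Of 14 lymph node markers listed, 8 were tested, and 7 of the 8 had this pattern, the exception being Ighm; their summed level was 1150 to 9128 in controls and 1490 to 8580 in knockouts. Xist, the RNA that silences an X chromosome in female cells, stood at 3165 in knockout 3 and at 3 or less in the other 9 libraries, which goes against the label of knockout 3. On the first principal component, which held 33.8% of the variance, controls 1 and 2 lay at -50.6 and -43, whereas control 5 and knockout 4 lay at 41.6 and 49. Where leaving out knockout 3, or the 4 libraries with lymph node markers, moved a difference or a list median by over 1.5 times, the value without them is given beside it for the genes and lists that are described, list medians close to 0 excepted. Leaving out the 4 libraries leaves 4 controls and 2 knockouts.

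Pdgfrb itself was lower in the knockout libraries but far from absent. Pdgfrb (ENSMUSG00000024620, GRCm38 chromosome 18, 61045150 to 61085061, plus strand, protein-coding) had normalized counts of 1848, 1673, 1720, 1716 and 1811 in controls 1 to 5. In knockouts 1 to 5 it had 1475, 1628, 1138, 1339 and 958. All 5 knockouts lay below all 5 controls, although knockout 2 missed the lowest control by only 45 counts. The D489V samples also lay below all controls, at 906 ± 106 (SD, n = 5) with values from 820 to 1062, so low Pdgfrb was not particular to the knockout libraries.

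The difference in Pdgfrb was -0.45 on the log2(normalized count + 1) scale, knockout minus control, with a standard error (SE) of 0.13. Its adjusted p was 0.294 in limma with Benjamini-Hochberg adjustment over all genes, and its exact two-sided permutation p was 0.00794, the smallest that 5 against 5 samples can give. Without the 4 libraries with lymph node markers it was -0.17, since knockouts 3 to 5, which hold the 3 lowest values, are then left out. The labels do not say which part of the gene was deleted, and a count over the whole gene includes reads outside a deleted part. Pdgfrb RNA of mural cells is counted in the same value.

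**Figure D1:**
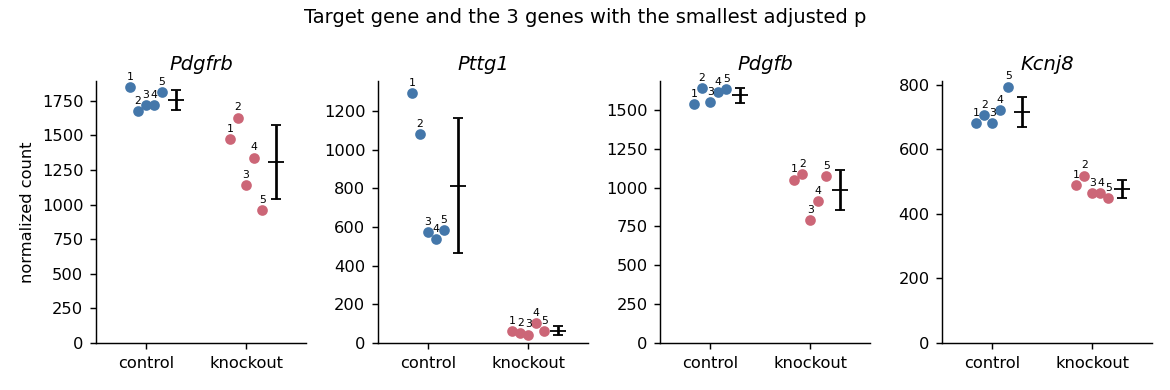
Normalized counts of Pdgfrb, Pttg1, Pdgfb and Kcnj8 in the 5 control and 5 knockout libraries. Each point is a library with its replicate number, the bar beside each group is the mean ± SD, and each vertical axis starts at 0. In all 4 panels every knockout lies below every control. As a ratio the gap is widest in Pttg1, where the highest knockout is at 102 and the lowest control at 538. In counts it is widest in Pdgfb, at 449 against 436 in Pttg1.

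Pttg1 was the 1 gene of 15234 that passed the adjusted threshold of 0.05, which makes the share called 0.00656%. Pttg1 (ENSMUSG00000020415, GRCm38 chromosome 11, 43420250 to 43426251, minus strand, protein-coding) encodes securin, the inhibitor that holds the protease separase inactive until sister chromatids part. Its normalized counts were 1294, 1083, 576, 538 and 585 in controls 1 to 5. They were 60, 52, 43, 102 and 63 in knockouts 1 to 5.

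Pttg1 thus fell from 815 ± 349 (SD, n = 5) to 64 ± 22.6 (SD, n = 5), a log2 change of -3.61 (SE 0.29, limma adjusted p 0.000595). The lowest control was 5.28 times the highest knockout, and Pttg1 was the only gene with a mean of 20 or more whose groups were at least 2 times apart. In the D489V samples the mean was 931 ± 296 (SD, n = 5), with values from 564 to 1210, inside the range of the controls. The difference was -3.84 without the libraries with lymph node markers and -3.49 without knockout 3. Only with the pericyte marker score as a covariate did the call end, at a limma adjusted p of 0.0888 and a log2 change of -3.32. That score was itself lower in knockout, at -0.43 to 0.12 against 0.08 to 0.28 in controls. A fit with it takes out part of the group difference and cannot separate the score from the genotype.

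No partner of securin passed the test. Of 17 tested genes of the securin, separase and cohesin list, Pttg1 was the only one whose groups did not overlap, 13 were higher and 4 lower in knockout, and the median log2 change was 0.14 against 0.01 over all genes tested, and 0.09 without the libraries with lymph node markers. Espl1, which encodes separase, had 44, 36, 38, 52 and 69 in controls and 11, 33, 25, 27 and 47 in knockouts, a log2 difference of -0.82 (SE 0.35, limma adjusted p 0.315), and the groups overlapped. Of 28 cell cycle genes, 24 were lower and 4 higher, with a median of -0.40, and 2 had an unadjusted p under 0.05, against 15.1% of all genes in either direction. These 2 were Birc5 (-0.74), which encodes survivin, and Cdk1 (-0.72), the mitotic kinase. Neither decrease was particular to the knockout. Birc5 was at 23.4 ± 8.4 (SD, n = 5) in D489V samples and 30.6 ± 12.3 (SD, n = 5) in knockouts. Cdk1 was at 19.6 ± 4.4 (SD, n = 5) and 34.4 ± 15.1 (SD, n = 5). Counts of these 2 genes in controls and knockouts were low, between 16 and 80, and no cell cycle gene had groups that did not overlap. Genes of that level, with a mean under 50, had a median of -0.14. Knockout 1 was lowest in the mean centred score of the cell cycle list, at -0.90. The other knockouts were at -0.20 to 0.17 and the controls at -0.08 to 0.61. With 1 replicate left out the list median ran from -0.50 to -0.17, and Espl1 from -1.02 to -0.52. Trp53, the p53 gene, was at -0.35 (SE 0.12, limma adjusted p 0.305).

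Beyond Pttg1 the differences were many but small beside the spread. Of all genes tested, 342 (2.24%) had groups that did not overlap, 151 higher (0.991%) and 191 lower (1.25%) in knockout, so 44.2% of these were higher. With each sample scaled to its upper quartile the split was 106 higher against 271 lower, or 28.1% higher. An unadjusted p under 0.05 was found for 1166 genes higher (7.65%) and 1130 lower (7.42%). The middle 95% of log2 changes ran from -0.79 to 0.69, and 3 genes had an adjusted p under 0.1. The median change moved with level: it was -0.14 for the 3095 genes with a mean under 50 and 0.17 for the 290 genes with a mean over 10000. Medians of gene lists below are set against that of all genes, not against genes of their own level.

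**Figure D2:**
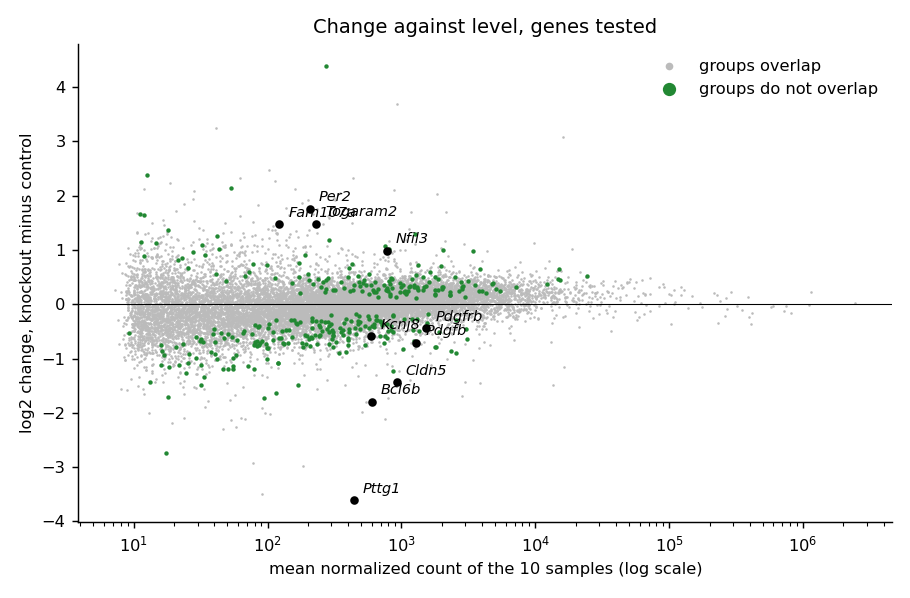
Log2 change, knockout minus control, of the 15234 genes tested against their mean normalized count over the 10 samples, on a log axis. Green points are the 342 genes whose groups do not overlap, grey points the rest, and named genes are in black. Pttg1 lies at -3.61, below all other genes; the highest green point, at 4.39, is the processed pseudogene Gm10020.

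The receptor's own ligand was lower too. Pdgfb, which encodes the B chain secreted by endothelial cells to recruit mural cells, had 1537, 1642, 1552, 1613 and 1635 in controls and 1052, 1088, 793, 914 and 1076 in knockouts. The log2 difference was -0.71 (SE 0.0979, limma adjusted p 0.0787), and the highest knockout lay well under the lowest control. The controls were tight, at 1596 ± 48.3 (SD, n = 5).

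Of the 7 PDGF ligands and receptors, 6 were lower and 1 higher, with a median of -0.28, and Pdgfb and Pdgfrb were the 2 whose groups did not overlap, against 1.25% of all genes on the lower side. These counts include Pdgfrb, the gene targeted by the design, so Pdgfb was the only other member without overlap. The median was -0.07 without knockout 3 and -0.10 without the libraries with lymph node markers. The other ligands were Pdgfa at -0.28 (limma adjusted p 0.419), Pdgfd at -0.12 (0.735) and Pdgfc at 0.43 (0.360), each with overlapping groups. They were at -0.10, -0.12 and 0.24 without the libraries with lymph node markers, and Pdgfd was at -0.07 without knockout 3. Pdgfa overlaps 6330403L08Rik, an antisense gene with a mean of 690, and the strand setting of the counting is not stated. Pdgfra, the alpha receptor that marks fibro-adipogenic progenitors, had 617, 655, 371, 607 and 662 in knockouts against 578 to 697 in controls. Its difference of -0.17 came mainly from knockout 3 and was -0.02 without it and -0.04 without the libraries with lymph node markers. Pdgfrl, a receptor-like gene, went from -0.38 to -0.02 without knockout 3 and to 0.30 without the libraries with lymph node markers.

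Genes that carry the receptor's signal showed no common direction. Of 16 transducers, 8 were higher and 8 lower, the median was 0.01, and no groups were free of overlap. Nck1, an adaptor that binds the activated receptor, was at 0.23 (limma adjusted p 0.312), and Plcg1, the phospholipase it recruits, at -0.20 (0.328), or -0.09 without the libraries with lymph node markers.

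Most genes that are switched on by such signalling and then damp it were on the lower side. Of 14 feedback genes, 12 were lower and 2 higher, with a median of -0.22, and 3 had groups that did not overlap, all lower, against 1.25% of all genes. Dusp6, a phosphatase of ERK, had 704, 723, 746, 694 and 718 in controls and 535, 565, 480, 546 and 563 in knockouts, a difference of -0.42 (SE 0.0795, limma adjusted p 0.199). Both groups were tight and 129 counts apart at their nearest samples.

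Spred2, an inhibitor of Ras to ERK signalling, had 380, 408, 367, 299 and 323 in controls and 268, 283, 209, 202 and 134 in knockouts (-0.73, limma adjusted p 0.266). Spry2, a Sprouty inhibitor of receptor tyrosine kinases, had 609, 648, 461, 411 and 461 against 400, 380, 325, 389 and 380 (-0.45, limma adjusted p 0.296). In Spry2 the groups were only 11 counts apart, and controls 1 and 2 stood above the other controls. Spry4 (-0.55) and Spred1 (-0.38) were lower with overlapping groups. Spred2 was at -0.39, Spry4 at -0.35 and Spred1 at -0.23 without the libraries with lymph node markers.

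Most mural cell markers were lower, and few of them separated. Of 17 pericyte markers tested, 16 were lower and 1 higher, with a median of -0.26. Kcnj8, the potassium channel subunit of pericytes, had 681, 705, 682, 722 and 794 in controls and 490, 518, 464, 463 and 449 in knockouts. The difference was -0.59 (SE 0.0836, limma adjusted p 0.0787), and the nearest samples of the groups were 163 counts apart.

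Heyl, a Notch target of mural cells, had 577, 553, 540, 529 and 517 against 406, 429, 384, 370 and 290 (-0.54, limma adjusted p 0.227). These were the 2 pericyte markers whose groups did not overlap, against 1.25% of all genes on the lower side. Rgs5, the most abundant marker of the list, was at 11402 ± 766 (SD, n = 5) in control against 9499 ± 756 (SD, n = 5) in knockout libraries (-0.26, limma adjusted p 0.305). Vtn (-0.47), Foxs1 (-0.89), Ednra (-0.46) and Cspg4 (-0.34) had unadjusted p under 0.05 and overlapping groups. Foxs1 was at -0.39 and Vtn at -0.20 without the libraries with lymph node markers.

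Of 11 vascular smooth muscle markers, 9 were lower and 2 higher, with a median of -0.25 that was -0.10 without knockout 3. Their groups overlapped in every case. Myh11, the smooth muscle myosin, was at -0.40 (limma adjusted p 0.323), or -0.63 without the libraries with lymph node markers, and Acta2, smooth muscle actin, at -0.31 (0.312).

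Endothelial markers were lower without exception. All 16 tested had a negative difference, with a median of -0.51 against 0.01 over all genes, and 13 had an unadjusted p under 0.05, against 7.42% of all genes on the lower side. The summed level of the list was 23862 to 36313 in controls and 15845 to 23160 in knockouts, which did not overlap. None of the 16 passed the adjusted threshold. The median was -0.47 without knockout 3 and -0.30 without the libraries with lymph node markers, where all 16 were still negative and 2 had an unadjusted p under 0.05. With the pericyte score as a covariate the median was -0.08, with 12 lower and 4 higher and 1 at an unadjusted p under 0.05. Since the pericyte score follows the group, that fit takes out part of any group difference. Both the pericyte and the endothelial list were lower in knockout, and the part of either in the other was not tested.

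Cldn5, the claudin of endothelial tight junctions, had 1719, 1407, 1264, 1069 and 1186 in controls and 548, 835, 318, 435 and 423 in knockouts. The difference was -1.43 (SE 0.22, limma adjusted p 0.116), and no knockout reached the lowest control. Kdr, the receptor VEGFR2, had 3631, 3233, 2999, 2710 and 2371 against 2246, 2158, 1486, 1260 and 1278 (-0.86, limma adjusted p 0.227). In Kdr, control 5 and knockout 1 were 125 counts apart, and knockouts 3 to 5 were lowest.

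Tek, the receptor of angiopoietins, was at -0.47 (limma adjusted p 0.244) and Pecam1, the adhesion molecule CD31, at -0.45 (0.280); both also had groups that did not overlap. Cdh5, the cadherin of endothelial junctions, was at -0.69 (0.276), Aplnr, the apelin receptor, at -0.90 (0.294), and Esam at -0.55 (0.280), with groups that overlapped. Kdr was at -0.51, Pecam1 at -0.26, Cdh5 at -0.30, Aplnr at -0.56 and Esam at -0.29 without the libraries with lymph node markers. With the pericyte score Cdh5 was at -0.08, Aplnr at -0.12, Esam at -0.08 and Pecam1 at -0.07. Tek was at -0.23, Kdr at -0.36 and Cldn5 at -0.60 in that fit. Outside the marker list, Bcl6b, a transcriptional repressor, had 1135, 954, 708, 839 and 935 in controls and 308, 500, 310, 186 and 134 in knockouts. Its difference was -1.79 (SE 0.29, limma adjusted p 0.150), and its D489V mean was 867 ± 112 (SD, n = 5), within the range of the controls. It was at -1.19 without the libraries with lymph node markers and at -1.24 with the pericyte score. Cd93, a lectin-like receptor of endothelium, was at -0.79 (limma adjusted p 0.173) with groups that did not overlap, and at -0.30 with the pericyte score.

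Ligands and targets of vessel growth differed in direction. Of 10 angiogenic ligands, 2 were higher and 2 lower at an unadjusted p under 0.05, against 7.65% and 7.42% of all genes. The median was 0.05, or -0.17 without the libraries with lymph node markers. Vegfc, the lymphatic growth factor, was at -1.06 (limma adjusted p 0.276) and was -0.39 without the libraries with lymph node markers. Angpt2, which destabilizes vessels, was at -0.51 (0.302), while Angpt1, which stabilizes them, was at 0.49 (0.312) and Fgf2 at 0.40 (0.310). Angpt2 lies within the gene Mcph1, with which reads could be shared, and Fgf2 overlaps Nudt6 (mean 487.5) on the opposite strand.

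Of 13 genes of the Notch pathway, 11 were lower and 2 higher, with a median of -0.28. Besides Heyl, the ligand Dll4, which is made by endothelium, was at -0.82 (limma adjusted p 0.269), and Dll1 at -0.74 (0.280). The receptor gene Notch1 was at -0.41 (0.302) and the ligand Jag1 at -0.55 (0.305). Dll4 was at -0.46, Dll1 at -0.41 and Notch1 at -0.23 without the libraries with lymph node markers.

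**Figure D3:**
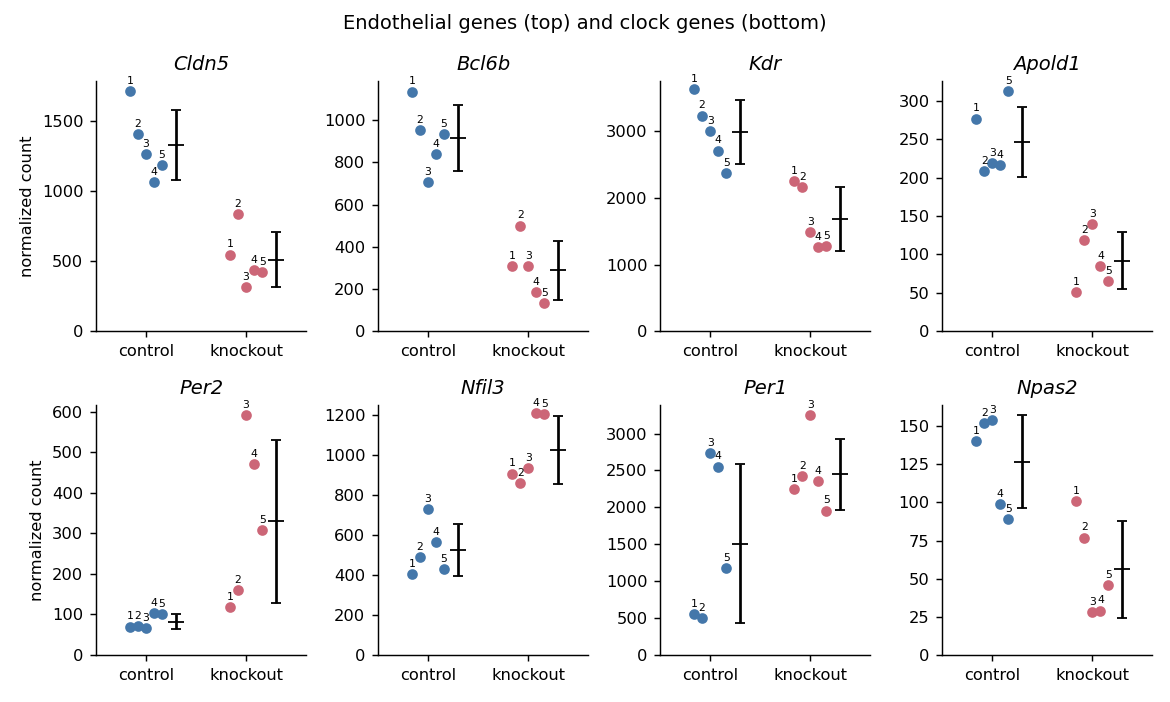
Normalized counts of 4 genes lower in knockout (top: Cldn5, Bcl6b, Kdr and Apold1) and 4 clock genes (bottom: Per2, Nfil3, Per1 and Npas2). Points are libraries with their replicate numbers, bars are mean ± SD, and axes start at 0. The groups do not overlap in the 4 top panels or for Per2 and Nfil3, and they overlap for Per1, where controls 1 and 2 lie at 548 and 501, and for Npas2.

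More genes passed in fits with another estimate of the spread. When all 15 samples shared one estimate of the spread, 16 genes passed, 12 lower and 4 higher, and all 16 had groups that did not overlap. They included Pdgfb and Kcnj8 (adjusted p 0.0131 for each), Cldn5, Bcl6b, Cd93, Apold1, Rnf144a, Plk3 and Eif2ak2 among the lower genes and Togaram2, Fam107a and Nfil3 among the higher.

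Libraries of both groups also differed in fibre type. Slow fibre markers summed to 48134 to 286315 in controls and 56780 to 286738 in knockouts, and once their mean centred score entered the fit as a covariate 17 genes passed, 14 lower and 3 higher. Of these, 7 were also among the 16 of the fit to all 15 samples, and 12 had groups that did not overlap. Kdr, Cldn5, Cdh5, Pdgfb, Cd93, Bcl6b, Kcnj8, Arhgap18, Sema6a and Npas2 were among the lower genes and Per2, Nuak1 and Ankrd33b were the 3 higher. These fits were compared with the first one after its result was known.

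Most clock genes were higher in knockout. The circadian clock is a loop in which Clock or Npas2 with Arntl activate the Per and Cry genes through the E-box, whose letters are CACGTG, and Per and Cry proteins then repress them. Of 17 clock genes tested, 13 were higher and 4 lower, with a median of 0.29, 7 higher and 1 lower at an unadjusted p under 0.05, and 2 with groups that did not overlap, both higher. Of all genes, 7.65% were higher at that p and 0.991% were higher without overlap. No clock gene passed the adjusted threshold. The median was 0.08 without the libraries with lymph node markers, 0.22 without knockout 3 and -0.05 with the pericyte score as a covariate, where 7 were higher and 10 lower.

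Of the 17 genes, 15 had a window of 250 bases before the start site in RefSeq (GRCm38.p6), and 5 of the 15 held CACGTG, which reads the same on both strands. Per2 was among the genes without a window, so it was not searched for the motif. Counted by window, since some genes have more than 1 start site, 6 of 20 clock windows held it (30.0%), against 6.02% of all 32851 windows, 20 of which held it at least 3 times. The 6 include more than 1 window of Tef, and for these counts bases within exons were searched too. The 3 windows below show its place in an output gene (Ciart), a core gene (Per1) and a PAR bZip factor (Tef); capitals mark each match, all are 5′ to 3′ on the strand of the gene, and bases that the annotation places in an exon were left off. They are Ciart at chr3:95882252-95882478 on the minus strand, Per1 at chr11:69098699-69098947 on the plus strand and Tef at chr15:81811164-81811413 on the plus strand. A match is a description of these letters, not of a bound site.

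Ciart: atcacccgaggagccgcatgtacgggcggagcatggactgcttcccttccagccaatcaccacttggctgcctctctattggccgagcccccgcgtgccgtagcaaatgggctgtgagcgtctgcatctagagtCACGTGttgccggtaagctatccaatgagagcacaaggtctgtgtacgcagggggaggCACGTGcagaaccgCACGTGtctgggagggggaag
Per1: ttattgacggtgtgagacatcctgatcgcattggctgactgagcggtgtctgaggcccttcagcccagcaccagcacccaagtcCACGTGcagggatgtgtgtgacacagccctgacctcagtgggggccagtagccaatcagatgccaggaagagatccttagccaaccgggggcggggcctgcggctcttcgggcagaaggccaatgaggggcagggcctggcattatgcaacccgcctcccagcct
Tef: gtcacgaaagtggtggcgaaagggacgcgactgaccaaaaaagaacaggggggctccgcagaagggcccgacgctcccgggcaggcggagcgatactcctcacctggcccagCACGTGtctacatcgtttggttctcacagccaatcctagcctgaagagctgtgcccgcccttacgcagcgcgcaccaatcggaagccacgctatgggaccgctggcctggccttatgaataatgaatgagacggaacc

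Per2, a repressor of the loop, had the greatest difference among clock genes. It had 70, 72, 67, 103 and 100 in controls and 118, 160, 591, 471 and 308 in knockouts, a log2 difference of 1.76 (SE 0.39, limma adjusted p 0.227). Knockouts 3 to 5, which hold lymph node RNA, were the 3 highest, and without the 4 such libraries the difference was 0.83. Control 5, which also holds such RNA, was at 100.

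Nfil3, a repressor that opposes the PAR bZip factors, had 406, 491, 729, 565 and 428 against 908, 861, 937, 1212 and 1206 (0.98, SE 0.17, limma adjusted p 0.150). The groups did not overlap, and the difference was 0.72 without those libraries. Npas2, an activator, was at -1.31 (limma adjusted p 0.276), with 140, 152, 154, 99 and 89 against 101, 77, 28, 29 and 46. It was lowest in knockouts 3 to 5 and at -0.60 without those libraries.

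The 3 genes whose windows are printed did not separate. Tef was at 0.38 (limma adjusted p 0.305), with 4519 to 7112 in controls and 6743 to 8186 in knockouts. Per1 was at 1.03 (0.319), but controls 1 and 2 stood at 548 and 501 and controls 3 and 4 at 2738 and 2551. Ciart, which holds CACGTG 3 times, was at 0.71 and went to 0.33 without knockout 3 and to -0.32 without the libraries with lymph node markers. Cry1 (0.17) and Bhlhe41 (0.19), the other 2 genes with the motif, had overlapping groups. Hlf (0.64), Cry2 (0.46) and Nr1d2 (0.29) had an unadjusted p under 0.05, and were at 0.16, 0.26 and 0.08 without the libraries with lymph node markers. The labels give no time of day of collection, so a difference in hour and a difference in genotype cannot be told apart.

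**Figure D4:**
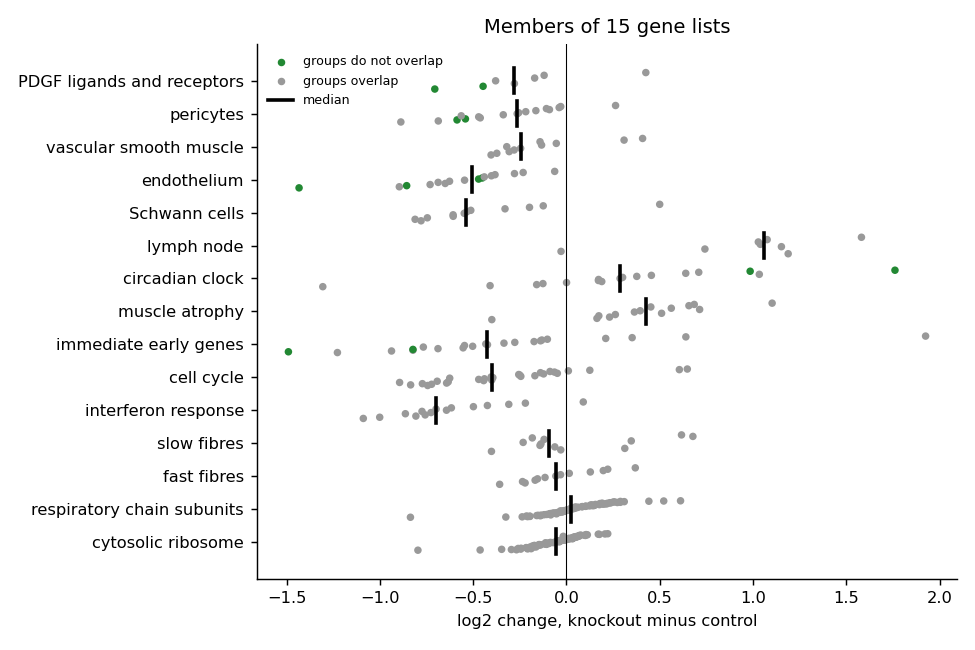
Log2 change, knockout minus control, of each tested member of 15 gene lists. Green points are members whose groups do not overlap, grey points the rest, and black bars the list medians. The endothelial median is at -0.51 with all 16 members below 0, the lymph node median at 1.06 (0.57 without knockout 3), and the clock median at 0.29 with Per2 and Nfil3 as its green points.

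Genes of muscle breakdown lay on the higher side. Of 14 atrophy genes, 13 were higher and 1 lower, with a median of 0.42, and 6 had an unadjusted p under 0.05, all higher, against 7.65% of all genes; no groups were free of overlap. Without the libraries with lymph node markers the median was 0.24, and no member was higher and 1 was lower at that p. With the pericyte score it was 0.15, with no member at that p. Klf15, a glucocorticoid-induced factor, had 463, 533, 842, 603 and 546 in controls and 812, 867, 1248, 874 and 869 in knockouts (0.66, limma adjusted p 0.249). Control 3 lay above 1 knockout, and knockout 3 above all others.

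Foxo3, a factor that drives protein breakdown genes, was at 0.56 (0.273), Foxo4 at 0.36 (0.305) and the ubiquitin ligase gene Fbxo30 at 0.40 (0.303). Fkbp5, also glucocorticoid-induced, had 1749, 734, 723, 2543 and 3291 in knockouts against 509 to 942 in controls (1.10, 0.305), and Foxo1 had 1899 and 1890 in knockouts 4 and 5 alone. Foxo3 was at 0.37 without the libraries with lymph node markers. Of 37 proteasome genes, 28 were higher and 9 lower with a median of 0.08. Psmd10, a chaperone of proteasome assembly, had 256, 292, 319, 344 and 297 against 390, 385, 349, 414 and 476 (0.42, limma adjusted p 0.280) without overlap. Psmd14, a deubiquitinase subunit, was the other proteasome gene without overlap, at 0.19 (0.332). These were 2 of 37, against 0.991% of all genes on the higher side. Their groups were only 5 counts (Psmd10) and 16 counts (Psmd14) apart. With each sample scaled to its upper quartile, no proteasome gene was free of overlap.

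Metabolic gene lists had medians from 0.02 to 0.19, against 0.01 over all genes. The medians were 0.19 over 19 genes of glycolysis and glycogen, 0.15 over 18 of fatty acid oxidation and 0.02 over 78 respiratory chain subunits. Of these, 14, 13 and 46 were higher in knockout. Ppargc1a, the coactivator of mitochondrial genes, had 429, 492, 640, 554 and 499 in controls and 650, 546, 1000, 1417 and 2056 in knockouts (0.96, limma adjusted p 0.302). Only knockout 2 overlapped the controls, and the difference was 0.19 without the libraries with lymph node markers.

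Cpt1b, which imports fatty acids into mitochondria, had 159, 152, 169, 165 and 176 against 126, 132, 133, 137 and 139 (-0.30, limma adjusted p 0.305). It was the only gene of its list whose groups did not overlap, against 1.25% of all genes on the lower side. Its locus overlaps the gene Gm44502 on the same strand, with which reads could be shared. Hk2, the muscle hexokinase, was at 0.54 (0.305), or 0.24 without the libraries with lymph node markers. Angptl4, which inhibits lipoprotein lipase, was at -1.11 (0.306), with 1518, 1338 and 1565 in controls 1 to 3 and 525 and 462 in controls 4 and 5. Among respiratory genes Sdha (0.52) and Ndufs1 (0.61) were higher, with controls 1 and 2 as the lowest control samples in each; Sdha was at 0.84 without the libraries with lymph node markers.

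Early response genes were lower as a group, and the sharpest difference among them was in an endothelial gene. Of 22 tested, 18 were lower and 4 higher, with a median of -0.43, and 2 had groups that did not overlap, both lower, against 1.25% of all genes. Apold1, an early response gene of endothelium, had 277, 209, 219, 216 and 313 in controls and 51, 119, 140, 85 and 65 in knockouts. The difference was -1.49 (SE 0.26, limma adjusted p 0.167), and no knockout reached the lowest control. In D489V samples it was 646 ± 156 (SD, n = 5), with values from 507 to 882.

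Ccn1, a matrix-bound signal, had 1731, 1949, 1027, 919 and 1072 against 724, 735, 842, 639 and 686 (-0.82, limma adjusted p 0.244). Nr4a3, an orphan nuclear receptor, went the other way, with 66, 51, 221, 243 and 78 against 180, 182, 674, 897 and 585 (1.92, limma adjusted p 0.294). Its groups overlapped, and the difference was 0.63 without the libraries with lymph node markers. Klf4 was at -0.34 (0.305), or -0.18 without the libraries with lymph node markers.

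No contractile gene had groups further apart than their spread. The median was -0.06 over 13 fast fibre genes and -0.09 over 12 slow fibre genes, with no unadjusted p under 0.05 in either list. The slow fibre median was -0.54 without knockout 3. Without the libraries with lymph node markers it was -1.68, since control 5 and knockouts 3 to 5 are the 4 libraries with the highest slow fibre sums. Of 15 calcium handling genes, 12 were higher, with a median of 0.19 that was 0.11 without knockout 3; Stim1, the store calcium sensor, was at 0.40 (limma adjusted p 0.324), with controls 1 and 2 lowest.

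Regulators of the muscle lineage differed by gene. Myog, which encodes myogenin, had 603, 650, 455, 677 and 465 in controls and 470, 538, 317, 377 and 442 in knockouts (-0.41, limma adjusted p 0.312), and the groups overlapped. Mef2c, a cofactor of myogenin, was at 0.31 (0.302), Mef2a at 0.35 (0.305) and Myf6 at 0.29 (0.312). Of 10 satellite cell markers, 2 had an unadjusted p under 0.05, both lower, against 7.42% of all genes on the lower side. They were Fgfr4 at -0.61 (0.294) and Megf10 at -0.45 (0.312). The median of that list was -0.04. Myog was at -0.23, Mef2c at 0.19 and Fgfr4 at -0.30 without the libraries with lymph node markers.

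At the nerve-muscle contact, Agrn, which encodes agrin, was at -0.47 (limma adjusted p 0.301) and Chrne, the adult subunit of the acetylcholine receptor, at -0.39 (0.305). Rapsn (0.34), Dok7 (0.34) and Musk (1.24), which assemble the receptor cluster, lay on the higher side with overlapping groups. Chrne was at -0.22, Dok7 at 0.15 and Musk at 0.75 without the libraries with lymph node markers.

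Most Schwann cell genes were lower. Of 12 tested, 11 were lower and 1 higher, with a median of -0.54. At an unadjusted p under 0.05 were 8, all lower, against 7.42% of all genes on the lower side. No groups were free of overlap, and the summed level was 9798 to 15609 in controls and 7142 to 11111 in knockouts. Prx, which encodes periaxin, a protein of myelinating Schwann cells, had 1173, 1104, 914, 1446 and 1245 in controls and 692, 695, 653, 1007 and 818 in knockouts (-0.61, SE 0.15, limma adjusted p 0.244).

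Control 3 was the lowest control and knockout 4 the highest knockout in Prx, as in Ncmap (-0.81), Mbp (-0.55), Pmp22 (-0.53) and Mal (-0.61), which encode other proteins of myelin. In each of these genes the other 4 controls lay above every knockout. Without the libraries with lymph node markers the list median was -0.71, and 8 of the 12 genes then had groups that did not overlap, against 17.1% of all genes tested in that setting. The amount of nerve in each sample is not given and its part in the difference was not tested.

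**Figure D5:**
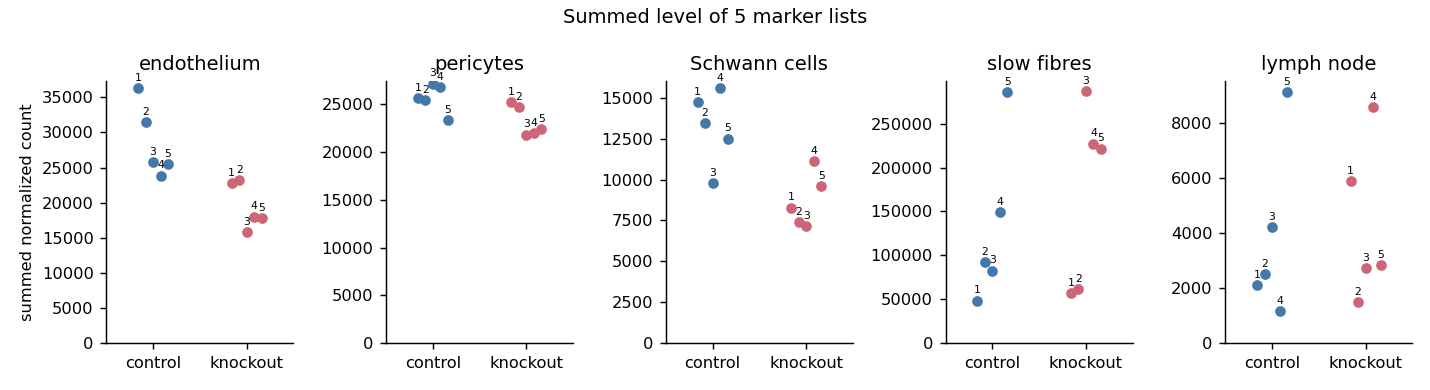
Summed normalized counts of 5 marker lists in each library, with replicate numbers and axes that start at 0. Endothelial sums do not overlap between control (23862 to 36313) and knockout (15845 to 23160); Schwann cell and pericyte sums are lower in most knockouts but overlap. Slow fibre sums are highest in control 5 and knockouts 3 to 5, and the lymph node sum includes Ighm, which is high in other libraries too.

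The collagen and matrix difference rested on knockout 3. Of 21 collagen and matrix genes, 20 were lower, with a median of -0.24 that was 0.03 without knockout 3, with 12 higher and 9 lower, and 0.21 without the libraries with lymph node markers. Their summed level was 94621 to 344495 in knockouts and 233626 to 310808 in controls. Mmp14, a membrane-bound matrix protease, was at -0.65 (limma adjusted p 0.302), at -0.45 without knockout 3 and at -0.18 without the libraries with lymph node markers. Of 12 markers of fibro-adipogenic progenitors, 11 were lower with a median of -0.23. Without knockout 3, 9 were lower and the median was -0.16, and it was -0.12 without the libraries with lymph node markers. Cd34, which endothelium also makes, was at -0.46 (0.276) and at -0.37 without knockout 3. Igf1 was at -0.48 (0.312) and at -0.27 without knockout 3 (-0.31 without the libraries with lymph node markers), and Cdkn1c, an inhibitor of cell division, went from -0.81 (0.305) to -0.48 without it.

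Interferon-induced genes were lower, and the controls were uneven in them. Of 15, 14 were lower and 1 higher, with a median of -0.70. At an unadjusted p under 0.05 were 6, all lower, against 7.42% of all genes on the lower side. Isg15, a ubiquitin-like protein, had 227, 173, 75, 70 and 135 in controls and 82, 85, 39, 51 and 44 in knockouts (-1.09, limma adjusted p 0.302). Controls 1 and 2 were the 2 highest and controls 3 and 4 lay among the knockouts. Controls 1 and 2 were also the 2 highest in Oasl2 (-1.001, 0.276) and Bst2 (-0.77, 0.302). Without the libraries with lymph node markers the median was -0.50, no member was at that unadjusted p and Isg15 was at -0.52.

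Lists for other cells gave medians of -0.03 for 13 macrophage markers, -0.19 for 10 adipocyte markers, -0.38 for 6 erythroid genes, -0.27 for 8 tendon genes and 0.00 for 13 posterior Hox genes. The tendon median was -0.08 without knockout 3 and 0.35 without the libraries with lymph node markers, where 7 of 8 genes were higher and 6 of them did not overlap, against 17.1% of all genes in that setting. The erythroid median was -0.18 without knockout 3, where the macrophage median was 0.21, and the adipocyte median was -0.30 without the libraries with lymph node markers. Those of 15 chaperones and 77 mitochondrial ribosome genes were 0.20 and 0.04, with Hspa5 at 0.30 (limma adjusted p 0.305) and Mrps23 at 0.38 (0.312); the chaperone median was 0.07 and Hspa5 was at 0.16 without the libraries with lymph node markers. Cytosolic ribosome genes, 77 of them, had a median of -0.05. The medians were 0.09 for 9 genes of cyclin-dependent kinase inhibitors and p53 and -0.04 for 12 of muscle growth control.

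Among protein-coding genes with a mean of 50 or more and groups that did not overlap, the greatest positive differences after Per2 were in Togaram2 and Fam107a. Togaram2, which encodes a microtubule-binding protein of cilia, was at 1.48 (SE 0.27, limma adjusted p 0.170). Fam107a, a glucocorticoid-induced actin-binding protein, was at 1.48 (limma adjusted p 0.170). Plekhb2 followed at 1.30 (0.302), with 261 and 312 in controls 1 and 2 and 1018 to 1325 in the other controls. Map3k6 (1.18), Nrip1 (1.07), Timp4 (1.02), Clip4 (0.99) and Cd24a (0.99) came next. Map3k6 was at 0.68 and Nrip1 at 0.44 without the libraries with lymph node markers. The D489V samples also lay above all controls in Togaram2 (276 to 413 against 76 to 228) and Map3k6 (240 to 360 against 134 to 228). The same held for Timp4 (745 to 1362 against 387 to 699), so these differences were not particular to the knockout. In Fam107a, Plekhb2, Nrip1, Clip4 and Cd24a the D489V samples overlapped the controls. Timp4 lies within Syn2, with which reads could be shared.

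Apart from Apold1 and Cldn5, the greatest negative differences after Pttg1 and Bcl6b were in Col28a1, a collagen gene, at -1.72 (SE 0.34, limma adjusted p 0.2003), and Rcor2, a corepressor, at -1.63 (limma adjusted p 0.280). In Rcor2 controls 1 and 2 stood at 310 and 344, controls 3 to 5 at 63, 93 and 106, and the highest knockout at 61. Trp53i11 (-1.23), Akap5 (-1.20), Slc16a13 (-1.20), Plk3 (-1.19), Prdm1 (-1.13) and Micall2 (-1.08) were next. Trp53i11 was at -0.81 and Akap5 at -0.69 without the libraries with lymph node markers. The D489V samples also lay below all controls in Akap5, at 26 to 65 against 67 to 85. They lay above all controls in Plk3, at 164 to 251 against 83 to 147. In Col28a1, Rcor2, Trp53i11, Slc16a13, Prdm1 and Micall2 the D489V samples overlapped the controls. Col28a1 had 117, 123, 155, 202 and 113 in controls and 79, 22, 27, 65 and 39 in knockouts.

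Some genes with large differences outside this ranking were chosen after their values were seen, the first 2 of them for controls at distinct levels. Gm10020, a processed pseudogene, had 1, 1, 196, 226 and 20 in controls and 497, 292, 289, 511 and 700 in knockouts (4.39, limma adjusted p 0.290). Gm6123, another processed pseudogene, had 15, 36, 795, 854 and 33 in controls and 738 to 2344 in knockouts (3.68, 0.285). Controls 1, 2 and 5 were the low ones in both. Gbp10, an interferon-inducible GTPase gene, had 31, 27, 26, 29 and 62 in controls and 349, 156, 52, 175 and 231 in knockouts (2.27, 0.2003). Processed pseudogenes and the Gbp family have near-identical copies, so that their counts are uncertain.

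Genes near the loci were read in the same way. Within 1 Mb of Pttg1, 5 other genes were tested and all had overlapping groups, and within 5 Mb 1 of 24 did not overlap. At an unadjusted p under 0.05 were 1 higher and 2 lower of the 5, and 4 higher and 3 lower of the 24. Of all genes, 7.65% were higher and 7.42% lower at that p. Within 1 Mb of Pdgfrb, 2 of 35 other genes had groups that did not overlap (5.71%, against 2.24% of all genes). Both, Dctn4 (0.36) and 1500015A07Rik (0.77), were higher in knockout. 1500015A07Rik is antisense to Afap1l1 (mean 3116.4), with which reads could be shared. No other gene within 5 Mb of Pdgfrb was added, so the share there was 2 of 72. Near Pdgfrb, 7 of the 35 were higher and 5 lower at that unadjusted p, and 12 of the 72 were higher and 8 lower. The shares at that p near Pttg1 and Pdgfrb were above those of all genes, and their cause was not tested. Within 5 Mb of Myog none of 93 was separated, and 4 were higher and 7 lower at that p. The labels name no Cre line, so the place of the driver of the deletion is not known.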

How the data were processed

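Values are a score that the authors made by normalizing gene counts and rounding them to whole numbers before they were deposited, as the name of the tables and the values show; the method is not given in the sources used here. Trim Galore 0.6.0, cutadapt, FastQC, STAR 2.7.0e, DESeq2 1.26.0 and GRCm38 are named without roles, per the submitters' processing notes. Whole reads could not be recovered, so count tests were not run. All 55536 gene identifiers matched GENCODE M21.

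The 5 knockout and 5 control samples were compared on log2(normalized count + 1) with limma 3.58.1 (R 4.3.3; linear model and moderated two-sided test with a variance trend), with Benjamini-Hochberg adjustment over 15234 genes and calls at an adjusted p under 0.05. This scale understates changes of low genes. The fit was tested on simulated counts with noise drawn separately for each gene. It called 61 of 99 genes changed 2 times, 88 of 97 changed 4 times and 11 of 14830 unchanged genes. Differences between libraries that many genes share, such as those described above, were not simulated. "Groups do not overlap" means that every knockout lies above, or below, every control. Single values were also given an exact permutation test. Tables and plots were made with pandas 2.3.3 and matplotlib 3.10.9 in Python 3.11.15.

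The rule for named genes took Pdgfrb, called genes, the 12 protein-coding genes in each direction with the greatest change among those with a mean of 50 or more and no overlap, at most 4 members per list by unadjusted p plus members without overlap, genes at least 2 times apart with a mean of 20 or more, genes called with the slow fibre score, and the 3 neighbours on each side of Pdgfrb and Pttg1. The text gives a subset of these; list members outside the rule and genes near the loci are named by their role. The members and the 38 gene lists were chosen with earlier results of these data known, so lists are described by counts and medians without a test. In all, 26 alternatives were run on the pseudocount, filter, scaling, variance model, weights, covariates and samples.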

Additional observations from a re-analysis of the deposited data

Results flagged for a closer look

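Among 346 groups of 5 values examined, 13 held a library whose gap to the nearest other library was over 0.71 of the group's range; chance gives about 1 in 20, or 17.3. Values are log2(normalized count + 1) unless stated.

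Knockout 3 stood apart in 7 of these. Its Xist value was 11.63 against 1.00 to 1.58 in the other knockouts. It was low in Pdgfra at 8.54 (others 9.25 to 9.37), Spry2 at 8.35 (8.57 to 8.65), Cdkn1c at 10.09 (11.53 to 11.97) and Igf1 at 8.88 (9.84 to 9.96), and high in Klf15 at 10.29 (9.67 to 9.77). Its mean centred score of fibro-adipogenic progenitor markers was -0.55 against -0.06 to 0.07.

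Knockout 5 was high in Psmd14 at 10.996 (others 10.84 to 10.86), and knockout 2 was low in AC109619.1, an antisense RNA, at 1.00 (2.00 to 2.32). Control 1 was high in Slc16a13, a monocarboxylate transporter, at 6.94 (5.81 to 6.09), and control 3 was low in Ncmap at 6.57 (7.13 to 7.35). Control 5 was high in Gbp10 at 5.98 (4.75 to 5.00), and control 4 had a fast fibre score of 0.24 (-0.07 to 0.00).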

How the results depend on the processing

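Pttg1 kept its direction under all 26 alternatives, from -3.84 to -3.32 with adjusted p 2.14e-05 to 0.0888 (limma), and -3.79 to -3.42 when 1 replicate was left out; it missed the threshold only with the pericyte score as covariate (-3.32). Pdgfrb ranged from -0.54 to -0.14 and never passed (-0.53 to -0.34 with 1 replicate left out). The count of called genes was 3 with upper-quartile scaling, 3 with quantile normalization, 16 with all 15 samples, 17 with the slow fibre score, 2 with the posterior Hox score, 3 without the libraries with lymph node markers, and 1 to 7 with 1 replicate left out, the highest without knockout 2. Genes without overlap numbered 2446 without the lymph node libraries, where fewer samples are compared, and 383 to 1013 with 1 replicate left out. Genes with an unadjusted p under 0.05 numbered 463 with the pericyte score, 1184 with the first principal component, 774 without the lymph node libraries, and 1250 to 3328 with 1 replicate left out; 1250 and 1272 were without controls 1 and 2. Same-numbered samples did not deviate together (correlations -0.205 to 0.241). The labels name no pairs, and correlations over all genes tested cannot exclude a pairing, since other differences between libraries enter them. With the replicate block 1 gene was called, Pttg1 was at -3.61 and Pdgfrb at -0.45. In that limma fit 2218 genes had an unadjusted p under 0.05, against 342 without overlap in either fit.

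Single genes turned sign with the pericyte score: Pdgfa 0.0309, Pdgfd 0.12, Pdgfra 0.24, Pdgfrl 0.73, Angptl4 0.10, Hk2 -0.0529, Myf6 -0.0334, Mmp14 0.13, Cdkn1c 0.03, Igf1 0.0464, Hlf -0.10, Nr1d2 -0.0206, Cry2 -0.15 and Ciart -1.02. Pdgfd was at 0.0059 with the first principal component, and without the lymph node libraries Pdgfrl was at 0.30 and Ciart at -0.32. The pericyte score follows the group and is the mean of the pericyte list. Fits with it take out part of the group difference, most directly for that list. The cause of the turns in sign was not tested. Of the other values of single genes, 3361 kept direction and call and 43 newly passed. List medians stayed within the spread of their samples in 953 cases and moved in 35. Among those that moved, sign turned with the pericyte score for the PDGF list (0.12), fast fibres (0.10), fibro-adipogenic progenitors (0.12), tendon (0.77), collagens and matrix (0.46), lymph node (-1.97), adipocytes (1.02), clock (-0.05) and chaperones (-0.06); slow fibres went to -2.58, pericytes to -0.08, feedback genes to -0.12, early response genes to -0.19, interferon genes to -0.18 and respiratory genes to 0.22. The sign also turned without the lymph node libraries for tendon (0.35), collagens (0.21), fast fibres (0.10) and angiogenic ligands (-0.17), with upper-quartile scaling for angiogenic ligands (-0.0094) and with quantile normalization for the proteasome (-0.0417). Rounding and depth limit genes near 10 counts.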
